A study of Mus musculus with 18 samples.

Results

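Egr1, Egr2, Nr4a1, Nr4a2, Ier2, Ier5, Zfp36, Dusp1 and Atf3 are immediate-early response genes outside the Fos and Jun families. They were chosen by symbol, and each was found as 1 row among the 29717 gene rows of the deposited count tables, 9 rows in all. The counts come from CEL-Seq2, which counts unique molecular identifiers (UMIs) at the 3′ end of polyadenylated RNA. Cells were sorted straight into lysis and reaction buffer, with no RNA extraction. The study examined what a specific Dnmt1 mutation does to blood progenitors of BALB/c mice.

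Lineage-negative marrow progenitors were sorted as HSC, MPP1 and MPP4. HSC are the stem cells, MPP1 are multipotent progenitors close to them, and MPP4 are lymphoid-primed progenitors. Mutant libraries number 3 for HSC, 2 for MPP1 and 4 for MPP4, and control libraries number the same. The mutants carry the engineered Dnmt1 change, which the series derives from the structure of hypomorphic missense mutants of fish, although the genotype label writes dnmt1-/-; the controls are labelled wt. The labels also give sequencing batches A, B and C. The HSC libraries hold 1 mutant and 1 control in batch A and 2 of each in C, the MPP1 libraries are all in C, and the MPP4 libraries hold 1 of each in A, 1 of each in B and 2 of each in C. The labels give neither the age nor the sex of the mice. The 18 libraries carry 8 ID numbers in their column names, 4 mutant and 4 control, and an ID number recurs in up to 3 populations. Each ID number has 1 MPP4 library and is called by it here, so that the donor of MPP4 mutant 3 also gave HSC mutant 3 and MPP1 mutant 1. Whether a donor in this sense is 1 mouse is not stated. The p-values therefore cover only the spread among these libraries or ID numbers, which may be technical.

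Immediate-early genes are transcribed within minutes of a stimulus such as a growth factor, stress or cell handling, without new protein synthesis. Signalling through MAP kinases and CREB reaches their promoters through serum response factor at CArG boxes and through cyclic AMP response elements (CREs). Their products include transcription factors (Egr1, Egr2, Nr4a1, Nr4a2, Atf3) and brakes on the same response, such as the phosphatase Dusp1 and the mRNA decay factor Zfp36. In blood stem cells Egr1 is known for roles in quiescence and retention in the marrow, and Nr4a1 also restrains proliferation.

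The promoter bases before the RefSeq transcription start are shown for Zfp36, Dusp1, Egr2 and Nr4a1. These windows were chosen because they hold matches to the letters of CArG boxes, CREs or EGR sites. Whether the genes respond through these matches was not tested. Each window is 250 bases on GRCm38.p6, read 5′ to 3′ on the gene's strand, and capitals mark matches to a CArG box, a CRE (TGACGTCA), a CRE half-site (TGACG) or an EGR site (GCGNGGGCG), on either strand. Half-sites may lie inside a full CRE.
Zfp36, chr7:28379229-28379478, minus strand: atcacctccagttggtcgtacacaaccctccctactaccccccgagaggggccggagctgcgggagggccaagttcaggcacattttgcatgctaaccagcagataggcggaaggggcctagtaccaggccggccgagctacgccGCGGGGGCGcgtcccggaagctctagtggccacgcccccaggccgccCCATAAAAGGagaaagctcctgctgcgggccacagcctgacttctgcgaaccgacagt
Dusp1, chr17:26508473-26508722, minus strand: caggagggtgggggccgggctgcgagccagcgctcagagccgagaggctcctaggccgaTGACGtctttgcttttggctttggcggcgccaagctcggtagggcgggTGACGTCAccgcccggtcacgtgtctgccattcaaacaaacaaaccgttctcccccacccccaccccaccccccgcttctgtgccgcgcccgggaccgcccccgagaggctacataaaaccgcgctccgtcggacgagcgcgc
Egr2, chr10:67537619-67537868, plus strand: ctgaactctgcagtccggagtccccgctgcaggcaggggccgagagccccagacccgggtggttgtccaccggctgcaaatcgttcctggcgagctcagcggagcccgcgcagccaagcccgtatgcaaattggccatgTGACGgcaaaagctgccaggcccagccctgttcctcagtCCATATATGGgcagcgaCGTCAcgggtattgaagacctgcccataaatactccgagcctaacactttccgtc
Nr4a1, chr15:101266596-101266845, plus strand: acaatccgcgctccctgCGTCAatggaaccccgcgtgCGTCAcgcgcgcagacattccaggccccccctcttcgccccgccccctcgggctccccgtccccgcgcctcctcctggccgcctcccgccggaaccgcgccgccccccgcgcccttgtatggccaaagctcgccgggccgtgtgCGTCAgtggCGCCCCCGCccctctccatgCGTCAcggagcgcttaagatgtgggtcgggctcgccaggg
The Zfp36 window held a CArG box and an EGR site, the Egr2 window a CArG box and a pair of half-sites, the Dusp1 window a full CRE, and the Nr4a1 window 4 half-sites and an EGR site.

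Promoter windows were used for 7 of the 9 genes, found by symbol, and none for Egr1 and Ier2. Windows on chromosome 18, where Egr1 lies, and windows of incomplete length were left out, also from the shares of all windows. A CArG box was in a window of 2 of them (Egr2, Zfp36) and in 1.47% of all 32851 windows of the same length. A full CRE was in 1 (Dusp1), against 1.55% of all windows, and a half-site in 5, against 17.8%. An EGR site was in 3 (Nr4a1, Nr4a2, Zfp36), against 4.7%. The GC box letters GGGCGG were in all 7, against 32.7%, and the part of GC content in the other shares was not tested. The TATA sequence TATAAA was in 1 (Nr4a2), against 12.4%, and the AP-1 letters TGANTCA were in none, against 6.75%. Members are counted by gene and the shares by window, so the counts and shares are not on the same footing. Egr2 had several windows, some nearly the same, and so more chances to match. These matches describe letters in the window and not binding.

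Library totals ran between 354642 and 1943562 counts, with a median of 745850.5. Several libraries stood apart. A list of 10 erythroid markers summed to 189464 CPM (counts scaled to a library total of 1000000) in MPP4 mutant 2, 13436 in HSC mutant 1, 32462 in MPP1 control 2 and 29853 in MPP4 control 4, and to 1006 or less in every other HSC and MPP1 library. The 8 lymphoid-primed markers, which include Ighm, summed to 15164 CPM in HSC control 1, against at most 132 CPM in HSC mutants. MPP4 control 4 detected 18226 genes with only 373963 counts. The labelled populations carried their markers: the 10 stem cell genes summed to 1642 to 4044 CPM in HSC mutants and 2800 to 4266 in HSC controls, and the lymphoid-primed list to 1833 to 4722 CPM in MPP4 mutants and 2062 to 4162 in MPP4 controls. Some marker lists differed with genotype, although none of their tested genes was called. In HSC, 9 of 10 stem cell genes had lower estimates in mutants (median -0.47) and 5 of 5 tested megakaryocyte genes higher ones (median 0.91), with megakaryocyte sums of 70.2 to 699 CPM in mutants and 98.6 to 286 in controls. In MPP1, 8 neutrophil markers summed to 602 to 996.1 CPM in mutants and 1767 to 8066 in controls, and 8 monocyte markers to 53.4 to 74.7 CPM in mutants and 89.8 to 99.0 in controls. The part of these cell types in the values of the 9 genes was not tested. Dnmt1 itself was at 109 to 336 CPM in HSC mutants and 100.2 to 290.4 in HSC controls, at 213 to 288 CPM in MPP1 mutants and 294 to 333 in MPP1 controls, and at 185 to 350 CPM in MPP4 mutants and 267 to 377 in MPP4 controls. A 3′ count checks nothing about such a change.

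The summed level of the 9 genes was higher on average in mutants of each population. It was 792 to 1463 CPM in HSC mutants, against 575 to 772 in HSC controls. In MPP1 it was 749 to 1377 CPM in mutants, against 380 to 644 in controls, and in MPP4 it was 432 to 1189 CPM in mutants, against 233 to 452 in controls. The ranges did not overlap in HSC and MPP1 and overlapped in MPP4. In a bulk sort, more cells expressing a gene and more RNA per cell cannot be told apart.

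Egr1, a zinc-finger transcription factor, showed the largest fold among the tested members in each population. In HSC it stood at 175, 219 and 459 CPM in the 3 mutants, against 45.1, 173 and 147 CPM in the 3 controls. In MPP1 it stood at 536 and 149 CPM in mutants, against 150 and 58.0 CPM in controls. In MPP4 it stood at 44.78, 109, 354 and 105 CPM in mutants, against 16.998, 30.4, 44.85 and 13.4 CPM in controls. Every HSC mutant lay above every HSC control, while in MPP1 and in MPP4 the lowest mutant lay just under the highest control. Mean levels were 284 ± 153 and 122 ± 67.6 CPM in HSC mutants and controls (SD, n = 3 each), 343 ± 274 and 104 ± 64.8 in MPP1 mutants and controls (n = 2 each), and 153 ± 137 and 26.4 ± 14.3 in MPP4 mutants and controls (n = 4 each). Within each of the 6 combinations of population and sequencing batch the mutant mean was higher, by 2.12- to 7.88-fold.

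**Figure D1:**
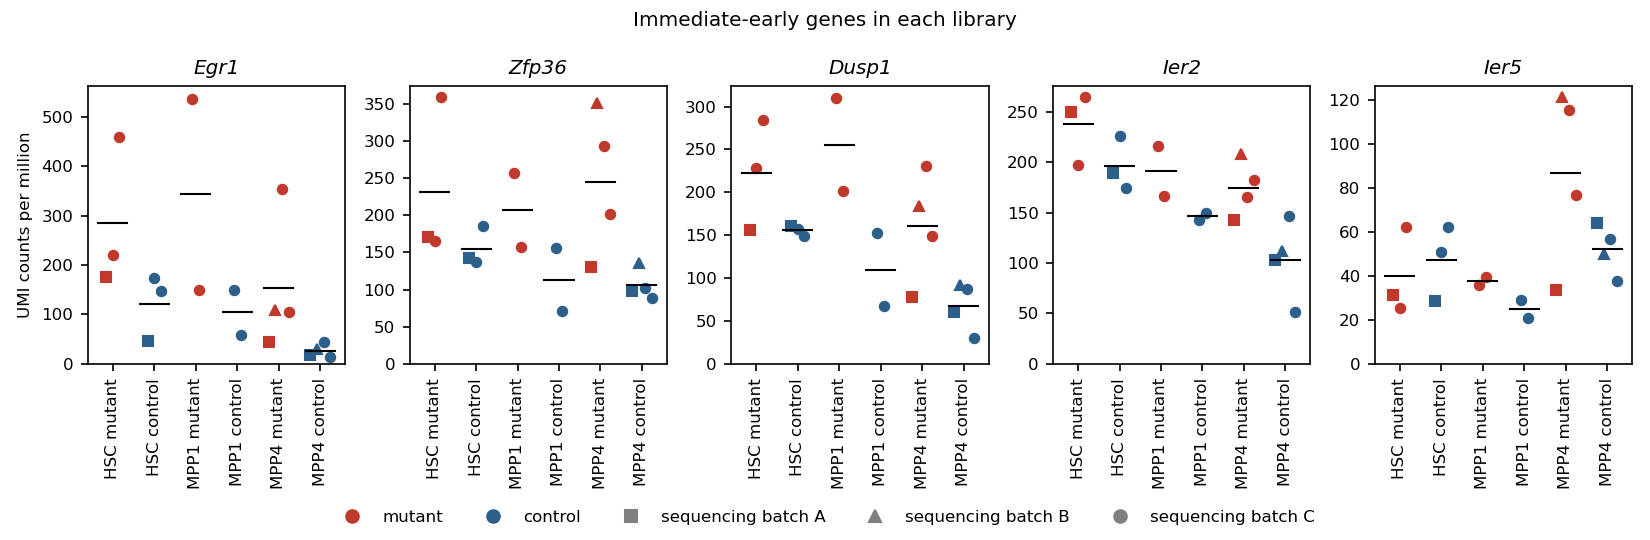
CPM (y axis) for the 5 better counted genes in each library, by population and genotype, with a line at the group mean and the marker shape giving the sequencing batch. Egr1 reached 354 to 536 CPM in 1 mutant library of each population, each time from the donor of MPP4 mutant 3. In all controls it stayed at 173 CPM or less.

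In HSC, Egr1 rose by 1.36 on the log2 scale (SE 0.29) in mutants, with an adjusted p of 0.0334 in edgeR's quasi-likelihood test with sequencing batch as a term. It was the 1 member called of 6 tested there, where 0.219% of 9147 genes were called higher. The call rested on few libraries: the adjusted p was 0.113 without HSC mutant 3 (1.06), 0.448 without HSC mutant 1 (1.07), 0.366 without HSC control 1 (1.07) and 0.0822 without HSC control 3 (1.39). It was 0.425 in batch C alone (1.07), where HSC mutant 1 and HSC control 1, the erythroid-rich and the Ighm-rich library, are both absent. When replicate numbers, which were not shown to be pairs, entered as a block, the change was 1.28 with an adjusted p of 0.0131. In that alternative fit 32 genes in all were called higher, against 20 without the block.

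In MPP1 none of 5 tested members was called higher by edgeR, where 0.212% of 8004 genes were. At an unadjusted p under 0.05 there were 3 (Dusp1, Zfp36 and Ier2), against 2.69% of genes, and DESeq2 called 0. The estimate for Egr1 was 1.83 (SE 1.04, adjusted p = 0.999), and it ranged between 0.61 and 2.61 over 11 alternatives. Without MPP1 mutant 2, Egr1, Zfp36 and Dusp1 were called (adjusted p = 4.24e-13, 0.00763 and 6.16e-05), and without MPP1 control 1, Zfp36 and Dusp1 (0.00155 and 7.79e-06). A group left with 1 library was taken there to vary like the other. In MPP4 again none of 5 was called, where 0.0958% of 9392 genes were called higher. At an unadjusted p under 0.05 there were 4 (Egr1, Zfp36, Dusp1 and Ier2), against 3.92% of genes, and DESeq2 called 3 of them. There Egr1 had an estimate of 2.37 (SE 0.47, adjusted p = 0.164) that ranged between 1.86 and 2.63 over the alternatives, with an adjusted p of 0.0407 without MPP4 mutant 3 and 0.000940 without MPP4 mutant 4. With the erythroid-rich MPP4 mutant 2 and MPP4 control 4 both left out, a choice made after seeing the data, none was called and Egr1 was at 2.14 (adjusted p = 0.809), Zfp36 at 1.07 (0.214) and Dusp1 at 0.97 (0.341).

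Zfp36 encodes tristetraprolin, which binds AU-rich elements and speeds the decay of cytokine and immediate-early mRNAs. In HSC it was at 171, 165 and 360 CPM in mutants, against 142, 137 and 186 CPM in controls. In MPP1 it was at 257 and 158 CPM in mutants, against 155 and 71.1 CPM in controls, and in MPP4 at 131, 352, 293 and 202 CPM in mutants, against 98.6, 135, 102 and 88.2 CPM in controls. The groups overlapped in HSC and MPP4, each time through 1 control that exceeded the lowest mutant, and did not overlap in MPP1. Estimates were 0.60 in HSC (SE 0.27, adjusted p = 0.462), 0.98 in MPP1 (SE 0.32, adjusted p = 0.726) and 1.23 in MPP4 (SE 0.25, adjusted p = 0.0714), all by edgeR and none called. In MPP4, DESeq2 gave Zfp36 an adjusted p of 0.0118 and the edgeR fit without MPP4 mutant 4 gave 0.0390.

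Dusp1, a nuclear phosphatase that switches off p38, JNK and ERK, had a higher mean in mutants of each population. In HSC it was at 156, 229 and 284 CPM in mutants, against 160, 157 and 149 CPM in controls. In MPP1 it was at 310 and 201 CPM in mutants, against 152 and 67.4 CPM in controls, and in MPP4 at 77.3, 184, 231 and 149 CPM in mutants, against 59.8, 91.6, 87.2 and 29.4 CPM in controls. Only MPP1 had no overlap, and in batch A of HSC the mutant and the control library were level, with a ratio of 0.973. Estimates were 0.51 in HSC (SE 0.24, adjusted p = 0.472), 1.33 in MPP1 (SE 0.32, adjusted p = 0.181) and 1.28 in MPP4 (SE 0.26, adjusted p = 0.0714) in edgeR, none called. DESeq2 gave Dusp1 an adjusted p of 0.0118 in MPP4, and edgeR without MPP4 mutant 4 gave 0.0403.

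Ier2 and Ier5 are small immediate-early proteins of a shared family, both linked to transcription. Ier2 was at 250, 198 and 265 CPM in HSC mutants, against 189, 226 and 175 CPM in HSC controls. It was at 216 and 166 CPM in MPP1 mutants, against 143.02 and 150 CPM in MPP1 controls, and at 142, 208, 166 and 182 CPM in MPP4 mutants, against 103, 111.7, 146 and 50.8 CPM in MPP4 controls. The groups separated in MPP1 only. The estimates of 0.30 in HSC, 0.53 in MPP1 and 0.85 in MPP4 (SE 0.23, 0.25 and 0.23; adjusted p = 0.693, 0.999 and 0.213, edgeR) did not pass the test.

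Ier5 did not share one direction. It ranged between 25.3 and 62.3 CPM in HSC mutants and between 28.4 and 62.0 CPM in HSC controls, and the estimate was -0.20 (SE 0.34, adjusted p = 0.885, edgeR). It was at 35.6 and 39.4 CPM in MPP1 mutants, against 29.1 and 20.6 CPM in MPP1 controls, an estimate of 0.70 (SE 0.42, adjusted p = 0.999). In MPP4 it was at 33.6, 121, 115 and 76.7 CPM in mutants, against 63.9, 49.9, 56.7 and 37.4 CPM in controls, an estimate of 0.71 (SE 0.36, adjusted p = 0.761). The MPP4 mutant of batch A lay below all 4 controls, and the other MPP4 mutants lay above them.

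**Figure D2:**
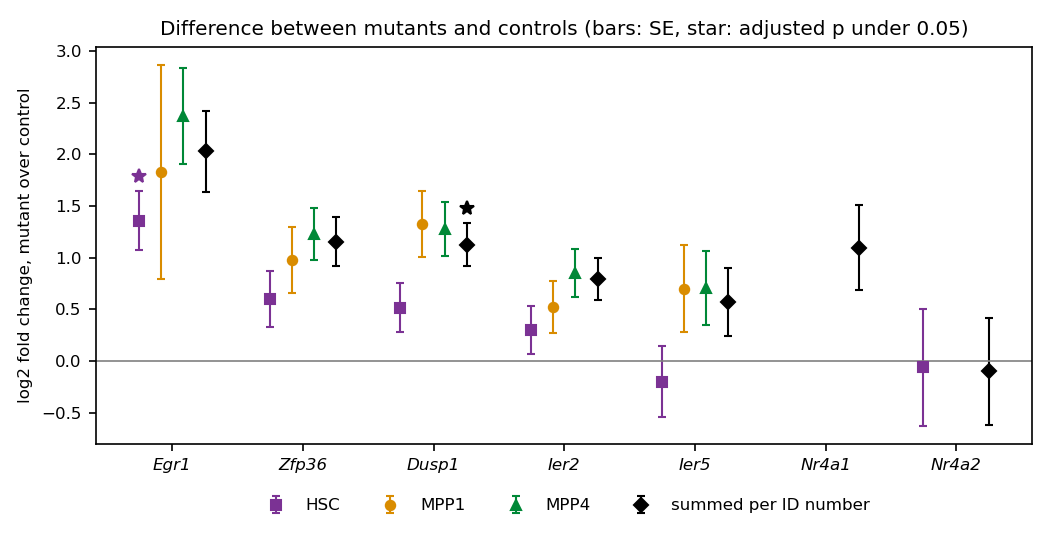
Log2 fold change of mutants over controls (y axis, bars are SE) for each gene that passed the filter on low counts, by population and for counts summed per ID number. Egr1 in HSC (1.36) and Dusp1 in the summed counts (1.12) are the starred values, with adjusted p under 0.05.

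Complete separation of mutants from controls was seen for 1 of 6 tested members in HSC (Egr1), 4 of 5 in MPP1 (Ier2, Ier5, Zfp36, Dusp1) and 0 of 5 in MPP4, against 3.98%, 9.5% and 0.66% of the genes tested there. Across populations, 4 of the 5 members tested in all 3 (Egr1, Zfp36, Dusp1 and Ier2) had higher estimates in mutants in all 3, as did 15.2% of 7738 genes. Within the 6 combinations of population and batch, the mutant mean was higher in all 6 for 3 members (Egr1, Ier2 and Zfp36), against 0.952% of 10613 genes in the model over all libraries. None of them had every mutant library above every control in all 6, a pattern met by 0.245% of those genes. Libraries that share an ID number recur across these combinations, so they are not independent.

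**Figure D3:**
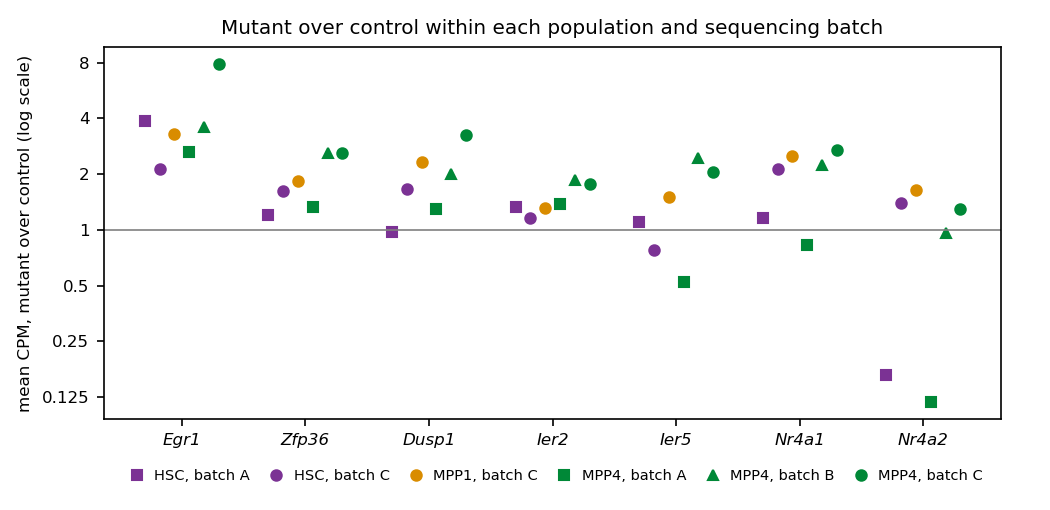
Ratio of mean CPM, mutant over control (y axis, log scale), within each combination of population and sequencing batch. Egr1, Zfp36 and Ier2 lie above 1 in all 6 combinations, Dusp1 in 5 (0.973 in HSC of batch A), and Nr4a2 lies at 0.118 to 0.165 in the batch A pairs.

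Counts were then summed over all libraries of an ID number, which makes 4 mutants and 4 controls. Dusp1 rose by 1.12 (SE 0.21, adjusted p = 0.0426, edgeR), at 193 ± 63.1 CPM in mutants and 97.7 ± 22.9 CPM in controls (SD, n = 4 each). It was the 1 member called of 7 tested, where 0.209% of 11020 genes were called higher. The call did not survive leaving out any ID number, each of which gave an adjusted p between 0.0662 and 0.2505 with estimates of 0.99 to 1.25. Egr1 was estimated at 2.03 (SE 0.39, adjusted p = 0.230) and Zfp36 at 1.16 (SE 0.24, adjusted p = 0.111), and DESeq2 gave them 9.52e-08 and 0.00187. Without the donor of MPP4 mutant 4, edgeR called Egr1 and Zfp36 (adjusted p = 0.000778 and 0.0408). Ier2 was at 0.80, Nr4a1 at 1.10 and Ier5 at 0.57, with Nr4a2 at -0.10 (adjusted p = 0.265, 0.629, 0.801 and 0.991, edgeR).

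Ier2 and Zfp36 separated the ID numbers completely, 2 of 7 tested members against 0.499% of genes. Ier2 lay between 185 and 222 CPM in mutants and between 111.7 and 169 CPM in controls. Zfp36 lay between 154 and 352 CPM in mutants and between 108 and 135 CPM in controls. The donor of MPP4 mutant 3 held the highest Egr1 and Dusp1 of its group in every population. Without it the summed estimate for Egr1 was 1.74 and that for Dusp1 0.99.

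Egr2, a relative of Egr1 that shares its binding site, was counted in mutants only. It had 13 counts in 4 of 9 mutant libraries and 0 in all 9 control libraries, which together held 8664674 counts. The counts were 2 in HSC mutant 1 and 2, 4 and 5 in MPP4 mutants 2, 3 and 4. Each of the 4 mutant ID numbers held at least 2, and no control ID number held any. The share of genes with few counts that split in this way was not computed. Set against a floor of 3 counts over the control libraries together, the mutant level was 5.61-fold the floor over all libraries (floor 0.346 CPM). In MPP4 it was 6.15-fold the floor (0.604 CPM). These values are not lower bounds, since the mutant counts were taken as exact. The exact 95% intervals of the mutant to control ratio, which cover counting error only, had smaller lower limits, at 3.94 and 4.21. Egr2 did not pass the filter on low counts, and the fit without the filter gave an adjusted p of 0.837 in MPP4 and 0.277 for the summed counts (edgeR).

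Nr4a1 (Nur77) and Nr4a2 (Nurr1) are orphan nuclear receptors with no known ligand of the classical kind. Nr4a1 had 7, 8 and 9 counts in HSC mutants, against 3, 8 and 1 in HSC controls. It had 6 and 8 counts in MPP1 mutants, against 4 and 5 in MPP1 controls, and 2, 4, 6 and 14 in MPP4 mutants, against 4, 6, 9 and 1 in MPP4 controls. Scaled to totals, the pooled ratio of mutants to controls was 1.37 in HSC (exact 95% interval 0.659 to 3.01), 3.09 in MPP1 (1.24 to 8.08) and 2.18 in MPP4 (1.17 to 4.12), intervals that cover counting error only. The MPP1 mutants, at 15.2 and 16.6 CPM, lay above the MPP1 controls, at 3.33 and 9.35 CPM. Nr4a1 did not pass the filter on low counts in MPP1, so the 9.5% of tested genes that separated there does not cover it.

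Nr4a2 did not follow Nr4a1. It had 29 counts in HSC mutants and 24 in HSC controls, 11 in MPP1 mutants and 15 in MPP1 controls, and 18 in MPP4 mutants and 30 in MPP4 controls. The pooled ratio over all libraries was 1.09 (0.754 to 1.57), and it was 0.828, 1.46 and 1.01 within HSC, MPP1 and MPP4. Its HSC estimate was -0.06 (SE 0.57, adjusted p = 0.982, edgeR). Atf3, a stress-induced bZIP factor, was at 0 in all 6 HSC libraries and had 1 count in MPP1 mutant 1. In MPP4 it had 9 counts in mutants, 8 of them in the erythroid-rich MPP4 mutant 2, against 5 in controls, a ratio of 3.02 (0.908 to 11.5).

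**Figure D4:**
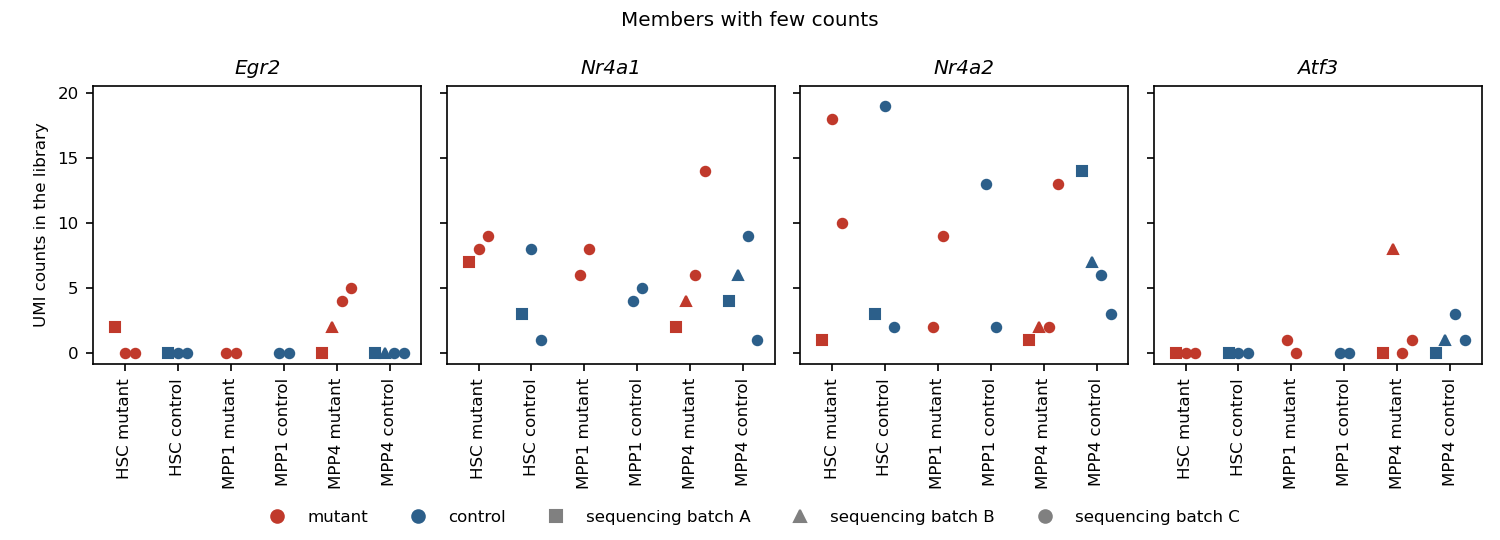
Raw UMI counts (y axis) of the 4 genes with few counts in each library, by population and genotype, with marker shape for sequencing batch. Egr2 is at 0 in all 9 controls and above 0 in 4 mutants, while Nr4a2 overlaps between genotypes in every population.

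The position and surroundings of the genes bear on the counting. Egr1 lies at 18:34859823-34864984 on the plus strand of GRCm38, Ier2 at 8:84661331-84662852 and Atf3 at 1:191170296-191218039, both on the minus strand, by GENCODE M21. Dusp1 has a gene model of 56539 bp there, which reaches over the opposite-strand gene Ergic1, with 718 counts over all libraries. Zfp36 has an antisense neighbour, Gm44710, with no row of its own in the tables. The sources do not say whether counting used strand, so reads of such partners cannot be told apart.

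Levels were also compared between populations, and in controls the mean levels of Egr1, Dusp1, Ier2 and Zfp36 were lowest in MPP4. In controls, Egr1 was at 26.4 ± 14.3 CPM in MPP4 (n = 4), 104 ± 64.8 in MPP1 (n = 2) and 122 ± 67.6 in HSC (n = 3). Control Dusp1 was at 67.0 ± 28.7 CPM in MPP4, 110 ± 60.0 in MPP1 and 156 ± 5.65 in HSC, and control Ier2 at 103 ± 39.5, 146 ± 4.71 and 197 ± 26.5 CPM in the same order (SD). Every MPP4 control lay below every HSC control for Egr1, Dusp1, Ier2 and Zfp36, but not for Ier5, Nr4a1 and Nr4a2. For Egr1 the gap was narrow, 44.85 CPM in the highest MPP4 control against 45.1 CPM in the lowest HSC control. The share of all genes with this pattern was not computed. The reverse, every MPP4 control above every HSC control, was met by 5.23% of 10613 genes. MPP1 and HSC controls, neighbours in this order, overlapped for Egr1 and Dusp1.

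In 1 model of all 18 libraries, blocked by ID number, 3 of 7 members were lower in MPP4 than in HSC of controls, where 4% of 10613 genes were called lower. Egr1 fell by 2.01 (SE 0.31, adjusted p = 8.93e-05), Dusp1 by 1.31 (SE 0.22, adjusted p = 6.94e-05) and Ier2 by 0.84 (SE 0.20, adjusted p = 0.00345), by edgeR. None was called higher, against 5.81% of genes. Zfp36 (-0.53), Ier5 (0.40), Nr4a1 (-0.20) and Nr4a2 (-0.38) did not pass, with adjusted p of 0.159, 0.534, 0.944 and 0.850. When sequencing batch replaced the ID number, the adjusted p for Egr1 was 0.137. That for Ier2 was 0.0797 without the donor of MPP4 control 1 and 0.0517 in batch C alone.

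In mutants the same contrast called 2 members lower, where 5.75% of genes were, and 1 higher, where 6.99% were. Egr1 fell by 1.05 (SE 0.24, adjusted p = 0.00391) and Dusp1 by 0.61 (SE 0.19, adjusted p = 0.0339), and Ier5 rose by 0.91 (SE 0.28, adjusted p = 0.0272), all by edgeR. Ier5 stood at 86.7 ± 40.6 CPM in MPP4 mutants (n = 4) and 39.7 ± 19.9 CPM in HSC mutants (n = 3). All 3 calls were lost without the donor of MPP4 mutant 4 (adjusted p = 0.0947, 0.208 and 0.413 for Egr1, Dusp1 and Ier5), that of Ier5 also without that of MPP4 mutant 3 (0.118) and that of Dusp1 without that of MPP4 mutant 1 (0.240). When sequencing batch replaced the ID number, none was called (0.451, 0.335 and 0.0696). Ier2 (-0.49), Zfp36 (-0.09), Nr4a1 (0.01) and Nr4a2 (-0.82) were not called (adjusted p = 0.0810, 0.861, 0.996 and 0.579).

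**Figure D5:**
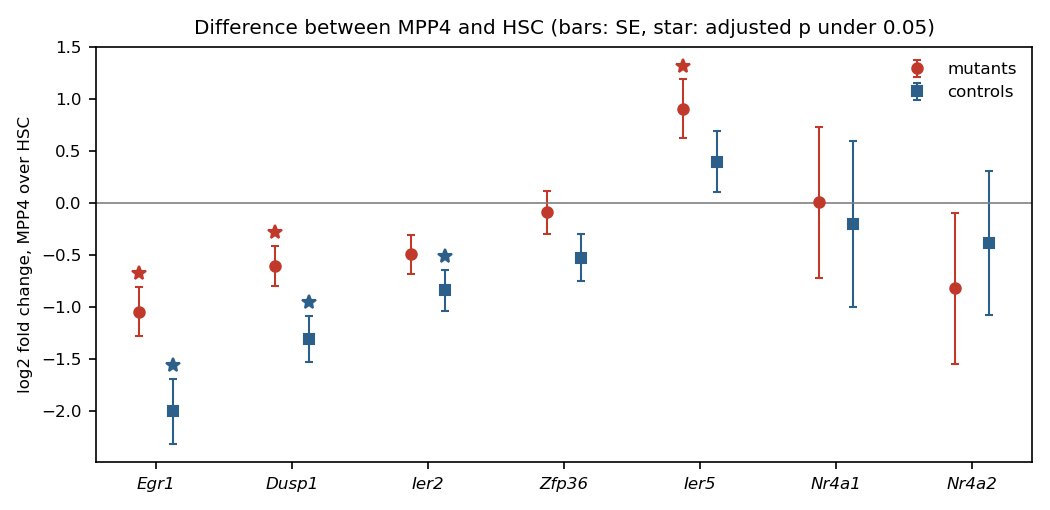
Log2 fold change of MPP4 over HSC (y axis, bars are SE) in mutants and in controls, for the 7 genes tested in the model over all libraries. Egr1 lies at -1.05 in mutants and -2.01 in controls, and Ier5 is above 0 in both.

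The difference between the mutant effect in MPP4 and that in HSC was itself tested. It was 0.96 for Egr1 (SE 0.39) and 0.70 for Dusp1 (SE 0.29), larger in MPP4, with an adjusted p of 1 for both in edgeR. The values for Ier2 (0.35), Ier5 (0.51), Zfp36 (0.44), Nr4a1 (0.21) and Nr4a2 (-0.44) also had an adjusted p of 1. None of 7 was called, against 0.0283% of genes, and 2 (Egr1 and Dusp1) had an unadjusted p under 0.05, against 3.89% of genes. For MPP1 minus HSC and for MPP4 minus MPP1 no member reached an unadjusted p under 0.05, against 4.76% and 4.41% of genes, and no gene was called. These tests had no DESeq2 fit.

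Between MPP4 and MPP1 of controls, Egr1 was lower by a log2 change of -1.43 (SE 0.34, adjusted p = 0.0160, edgeR), 1 of 7 members where 1.72% of genes were called lower. Ier5 was higher by 1.32 (SE 0.37, adjusted p = 0.0339), 1 of 7 where 1.86% were called higher, at 52.0 ± 11.3 CPM in MPP4 controls (n = 4) and 24.8 ± 6.03 CPM in MPP1 controls (n = 2). Both calls were lost without the donor of MPP4 control 3 (adjusted p = 0.732 for Egr1 and 0.277 for Ier5), and for Egr1 also without that of MPP4 mutant 4 (0.0572). The adjusted p for Ier5 was 0.200 without the donor of MPP4 control 4 and 0.103 without that of MPP4 control 1. Dusp1 (-0.75), Ier2 (-0.35), Zfp36 (-0.06), Nr4a1 (0.14) and Nr4a2 (0.16) were not called.

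The remaining population contrasts called no member by edgeR, and DESeq2 was not run on them. MPP4 against MPP1 of mutants called 6.16% of genes in either direction, and 3 of 7 members (Egr1, Ier5 and Dusp1) had an unadjusted p under 0.05, as did 17.8% of genes. MPP1 against HSC of mutants called 0.0471% of genes, and 0 of 7 members had an unadjusted p under 0.05, against 7.42% of genes. MPP1 against HSC of controls called 0.236% of genes, and 3 of 7 members (Ier2, Ier5 and Dusp1) had an unadjusted p under 0.05, against 5.37% of genes. The median member estimate for MPP1 against HSC was -0.19 in mutants and -0.54 in controls, beside -0.02 and 0.00 over all genes tested.

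The AP-1 subunits of the Fos and Jun families are transcription factors that are also induced as immediate-early genes. In HSC 3 of 5 tested AP-1 genes rose in mutants (Fos by 1.84, Fosb by 1.84 and Jun by 1.45), in MPP1 2 of 5 (Fos by 2.78 and Fosb by 2.19) and in MPP4 2 of 6 (Fos by 2.06 and Jun by 1.72), with adjusted p of 0.000248, 0.00109, 0.00524, 1.53e-05, 7.41e-05, 0.000925 and 0.0168 in that order (edgeR). Over all genes tested 0.219%, 0.212% and 0.0958% were called higher in HSC, MPP1 and MPP4. The list's median estimate was 1.45, 1.64 and 1.505 in HSC, MPP1 and MPP4, beside 0.41, 0.98 and 1.23 for the 9-gene group and 0.01, -0.00 and -0.00 for all genes tested. The summed AP-1 level was highest in the libraries of the donor of MPP4 mutant 3, at 2578 CPM in HSC mutant 3, 2356 in MPP1 mutant 1 and 2292 in MPP4 mutant 3.

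Of 40 other immediate-early genes, 21 were tested in HSC and 2 rose (Klf4 by 2.06 and Klf2 by 1.45), 18 in MPP1 and 3 rose (Klf4 by 3.48, Klf6 by 1.82 and Klf2 by 1.99), and 24 in MPP4 with none called, against the same 0.219%, 0.212% and 0.0958% of all genes. Their medians were -0.04, 0.39 and 0.45. None was called lower. Ier3, another immediate early response gene, singled out after its values were seen, had estimates of -0.55, -1.10 and -0.50 and was not called.

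The signalling genes upstream and the close relatives of the members gave no calls in any population or in the summed counts, and the genes named here were picked after their values were seen. Of 25 genes of the MAP kinase cascade and of SRF, ETS and CREB activators, all 25 were tested in the summed counts, 8 had higher estimates, and the median was -0.12. Srf itself was at -0.23 (adjusted p = 0.875, edgeR). Of the other MAP kinase phosphatases 6 of 8 were tested there, with 1 higher and a median of -0.31. Dusp6, which acts on ERK, was at -0.84 in HSC (SE 0.31, adjusted p = 0.368, edgeR) and at -0.02 in the summed counts (adjusted p = 0.997). In the summed counts, the tristetraprolin relatives Zfp36l1 and Zfp36l2 were at 0.17 and 0.02 (adjusted p = 0.924 and 0.995). The list with decay partners had 2 of 9 higher there and a median of -0.05. The EGR corepressors Nab1 and Nab2 were there at 0.09 and 0.17 (adjusted p = 0.956 and 0.968), in a list with 3 of 4 higher and a median of 0.13.

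Among heat-shock chaperones, 1 of 13 tested genes was called in HSC, 0 of 12 in MPP1, 0 of 12 in MPP4 and 2 of 14 in the summed counts, with median estimates of 0.27, 0.23, 0.13 and 0.17. Hspa1b, an inducible chaperone, rose in HSC mutants by 4.53 (adjusted p = 0.000146, edgeR), and Hspa1a and Hspa1b rose in the summed counts by 5.19 and 4.05 (adjusted p = 0.0112 and 0.0243). These are near-identical copies whose reads can be split between them, so the value of each copy alone is uncertain. Their sum was not tested. The 15 chaperones summed to 3603 to 6092 CPM in HSC mutants and 3202 to 4421 in HSC controls. The part of the chaperone genes or of the erythroid-rich libraries in the member values was not tested.

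The authors' deposited tables, made with DESeq2, gave Egr1 in MPP4 a log2 fold change of 1.72 (SE 0.386, adjusted p = 0.0135), the 1 member under 0.05. In the authors' deposited table for MPP4, Zfp36 was at 1.12 (adjusted p = 0.0989), Dusp1 at 1.06 (0.375) and Egr2 at 0.64 (0.9996). For Egr2 in MPP4, edgeR without the filter gave an estimate of 4.72. The deposited sizes may have been drawn toward no change by the method, so they are not directly comparable with the edgeR estimates. The authors' deposited table for HSC gave Egr1 0.96 with an adjusted p of 0.9999, and that for MPP1 gave Dusp1 0.87 with an adjusted p of 0.998. Those tables list 8, 7 and 13 genes under 0.05 in HSC, MPP1 and MPP4.

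The patterns of the members across libraries were compared after removing each population's mean, as a description over 18 libraries that share ID numbers and batches. Differences between genotypes and batches were left in, so genes that differ alike between genotypes also correlate. The most similar genes are the highest of 10613, and no reference for such values was computed. Dusp1 varied with Egr1 (Pearson r = 0.89), Zfp36 (0.89) and Ier2 (0.79), and Egr1 with Zfp36 (0.84). Outside the members, Egr1 was most like Jun (0.88), Fosb (0.87) and Hist1h2be (0.86), and Dusp1 most like Jun (0.88), Hist1h1c (0.87) and Klf6 (0.86). Zfp36 was most like Klf6 (0.84), Fosb (0.81) and Hspa1a (0.80), and Ier2 most like Hist1h1c (0.84), Hspa1a (0.84) and 3110002H16Rik (0.83). Nr4a1 was most like Fosb (0.82), Klf6 (0.80) and Ptcd3 (0.76). Ier5 stood nearer to Marcks (0.83), Ttc7 (0.80) and Ppt1 (0.80), and Nr4a2 to Mtap7d3 (0.83), Ptn (0.81) and Med12l (0.80).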

How the data were processed

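The count tables hold estimated counts of UMIs per gene and library, which the authors deposited as whole numbers. At high values their spacing is that of a correction for UMI collisions with 4096 possible UMIs. At the highest value of a gene described here, 303, this correction adds 3.74%. The build was mm10, and DESeq2 was run in R 3.4.0, per the submitters' processing notes. The aligner and the strand setting used were not given in the sources used here. Per the file headers, the DESeq2 tables of the authors give a mean normalised count (a signal), log2 fold changes with their errors, a test score, p-values and adjusted p-values.

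CPM values were computed by scaling each library to a total of 1000000. Counts, rounded where needed, were tested with edgeR 4.0.16 in R 4.3.3 (quasi-likelihood, TMM, filterByExpr with a minimum count of 10, sequencing batch as a term, Benjamini-Hochberg adjustment over all genes tested, threshold 0.05). The fit was tested on simulated data. DESeq2 1.42.0, RLE size factors, other filters, UMI back-conversion, a shared spread, batch C alone, Xist level as a term, the replicate block and leaving out libraries were alternatives. Counts were also summed per ID number, and populations were compared in 1 model of 18 libraries, blocked by ID number. Replicates differed from each other beyond counting noise (chi-square per degree of freedom 2.96 to 73.9). In HSC, same-numbered libraries correlated at r = 0.495 (the batch A pair), 0.200 and 0.224 over 9147 genes. The differently numbered pairs of batch C were at 0.116 and 0.237, so the numbers were not shown to be pairs. They entered as a block only in an alternative fit, not in the main one. MPP1 and MPP4 number the batch C donors in other pairs. Ratios of sparse genes have exact binomial 95% intervals and a floor of 3 counts, covering counting error only.

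The genes described, the gene lists and the naming rule were chosen with earlier results of these data known. The rule names all 9 genes, the called genes of each list (up to 4 with the smallest adjusted p), and for each gene the 3 others with the most similar pattern. Promoter sequences and starts are RefSeq's on GRCm38.p6, and gene positions are GENCODE M21's on GRCm38.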

Additional observations from a re-analysis of the deposited data

Results flagged for a closer look

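Samples far from the rest of their group were looked for in groups of 4, where chance alone flags about 1 group in 20. Atf3 reached 13.9 CPM in MPP4 mutant 2, which rests on 8 counts, while the other MPP4 mutants lay between 0 and 0.914 CPM. The same library is the only one of its ID number, so the summed level of Atf3 for that ID number, 13.9 CPM, is the same observation. That library also has the highest erythroid marker sum, 189464 CPM, and the part of those cells in the Atf3 value was not tested.

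Nr4a1 reached 7.62 CPM in MPP4 control 3, on 9 counts, against 2.67 to 3.09 CPM in the other MPP4 controls. Summed over populations, Egr1 stood at 450 CPM in the donor of MPP4 mutant 3, against 109 to 159 CPM in the other 3 mutant ID numbers. The controls lay between 25.1 and 120.1 CPM, so the lowest mutants overlapped the highest control.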

How the results depend on the processing

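For mutants against controls, the members called in HSC (1) became 0 with no batch term, in batch C alone, with Xist level as a term and with a spread shared over all libraries, and were 0 to 1 leaving out 1 library. In MPP1 (0) they became 1 with no filter on low counts and 3 under the replicate block (Egr1, Zfp36 and Dusp1, adjusted p = 6.82e-08, 0.0114 and 3.16e-05), and 0 to 3 leaving out 1 library. In MPP4 (0) they became 3 with DESeq2, 3 with no filter, 2 under the replicate block (Egr1 and Dusp1, adjusted p = 0.000364 and 0.0238), 1 with Xist level and 1 with the shared spread, and 0 to 3 leaving out 1 library. In the counts summed per ID number (1) they became 3 with DESeq2, 3 with no filter and 0 with no batch term, and 0 to 2 leaving out 1 ID number. The replicate numbers were not taken as pairs in the main fit of any population. MPP1 has only 2 pairs, and in MPP4 same-numbered libraries correlated at 0.324, -0.02, 0.339 and -0.01.

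All genes called higher in HSC (20) became 83 with no filter, 12 at a minimum count of 30, 32 under the replicate block, 5 with no batch term and 9 with the shared spread, and 13 to 61 leaving out 1 library. In MPP1 (17) they became 37 with no filter, 4 at a minimum count of 30, 33 under the replicate block and 3 with the shared spread, and 21 to 45 leaving out 1 library. In MPP4 (9) they became 27 with DESeq2, 64 with no filter, 3 with no batch term, 16 with Xist level, 16 without MPP4 control 4 and mutant 2, and 14 with the shared spread, and 1 to 17 leaving out 1 library. In the summed counts (23) they became 48 with DESeq2, 89 with no filter and 5 with no batch term, and 10 to 29 leaving out 1 ID number.

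Between populations, where DESeq2 was not run, the members called for MPP4 against HSC in mutants (3) became 0 when batch replaced the ID number and 1 in batch C alone, and 0 to 3 leaving out 1 ID number. In controls (3) they were 2 under both settings and 2 to 3 leaving out 1 ID number. For MPP4 against MPP1 in controls (2) they became 0 and 1 under those settings, and 0 to 2 leaving out 1 ID number. For MPP4 against MPP1 in mutants (0) they became 1 with no filter and 1 in batch C alone, and 0 to 1 leaving out 1 ID number.

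Signs turned only for estimates that were not called. Nr4a2 in HSC was at 0.00053 with no batch term, 0.25 in batch C alone and -0.46 to 0.32 leaving out 1 library, and Ier5 in HSC at -0.55 to 0.22. Summed Nr4a2 was at 0.20 with no batch term and -0.48 to 0.51 leaving out 1 ID number. For MPP4 against HSC in mutants, Zfp36 was at 0.035 in batch C alone and -0.27 to 0.033 leaving out 1 ID number, and Nr4a1 at -0.012 to 0.017. In controls Nr4a1 was at -0.37 to 0.12 and Nr4a2 at -1.01 to 0.91. The difference between MPP4 and HSC effects was 0.13 for Nr4a2 in batch C alone and -1.71 to 0.19 leaving out 1 ID number, and -0.11 to 0.38 for Nr4a1. For MPP4 against MPP1 in controls, Nr4a2 was at -0.28 in batch C alone and -0.30 to 1.54 leaving out 1 ID number, and Zfp36 at -0.62 to 0.81. Dropping the filter adds genes, batch C alone and leaving out libraries use fewer samples, and otherwise the cause was not tested. Depth limits Egr2, Atf3, Nr4a1 and Nr4a2 most, with at most 19 counts in any library.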
